A study of Mus musculus with 24 samples.

Results

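Dexamethasone, a synthetic glucocorticoid, was compared with no addition in restimulated WT mouse CD8+ T cells at day 9 of culture. The comparison used 6 of the 24 libraries of the study, 3 labelled Dex and 3 labelled Ctrl, chosen by their labels and not by any measured value. Both groups held sorted naive cells from spleen and lymph nodes of C57BL/6 mice. They were stimulated for 3 days with plate-bound antibodies to CD3 and CD28 (1 µg/ml each), rested for 3 days in 5 ng/ml IL2 and restimulated in the same way for 3 days. The Dex group had 10 nM dexamethasone in both stimulations, per the labels' protocol, and the Ctrl group had none. The other 6 libraries of day 9 entered the same fit, 3 with 25 ng/ml interleukin 27 (IL27) and 3 with IL27 and dexamethasone. They share its filter on low counts, its scaling and its estimate of the spread, and their own effects are not given here. For the cells of day 3 the labels describe WT as Nr3c1 fl/fl without the E8i-Cre transgene, which is active in the CD8 lineage. The cells of day 9 are labelled wild type, and whether they too carry the floxed receptor alleles is not stated. No group of day 9 lacked the receptor. Cells with the receptor gene deleted (cKO) were present at day 3 alone, and their values are given where they bear on a gene. Each library was made from 1000 sorted cells.

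Glucocorticoids cross the cell membrane and bind the glucocorticoid receptor, a transcription factor held ready for ligand by HSP90 and its co-chaperones. The bound receptor moves into the nucleus, where it raises genes next to glucocorticoid response elements and lowers many genes driven by AP-1 and NF-kB, cytokine genes among them. In CD8+ T cells, which kill infected and tumour cells with granzymes and perforin and secrete interferon gamma and TNF, glucocorticoids are known for restraining activation.

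The response was broad. Of 12320 genes tested, 6850 passed (55.6%, edgeR's quasi-likelihood test, Benjamini-Hochberg adjusted p under 0.05), 3473 higher in Dex (28.2%) and 3377 lower (27.4%). Of the genes that passed, 2693 had moved by under 1.5-fold, and 339 rose and 128 fell at least 4-fold. The 3 Dex and 3 Ctrl libraries did not overlap for 64.7% of all genes tested, so a member whose libraries separate is ordinary here. Counts of list members below are likewise to be read beside the 28.2% that rose and the 27.4% that fell. The median log2 fold change (Dex over Ctrl) of all genes tested was 0.03. Estimated counts summed to between 16091050 and 16203586 in Dex libraries and between 17090697 and 18377493 in Ctrl libraries. Rn45s, the ribosomal RNA precursor, took 14.6% ± 0.49 of counts in Dex and 9.11% ± 0.15 in Ctrl libraries (SD, n = 3). The share of genes that passed climbed with abundance: 34.4% below 10 CPM, 60.5% from 10 to 100 CPM, 81.7% from 100 to 1000 CPM and 94.9% above. CPM are counts scaled to a library of 1000000 counts, with TMM factors, and per-library values below are in the order of replicates 1 to 3. Plain counts of a gene are sums over the 3 libraries of a group, not scaled for library size. Whether replicates were separate animals or cultures is not labelled, and p-values then describe only the spread of these samples, which may be technical. In bulk RNA, fewer cells of a type and less RNA per cell cannot be told apart.

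**Figure D1:**
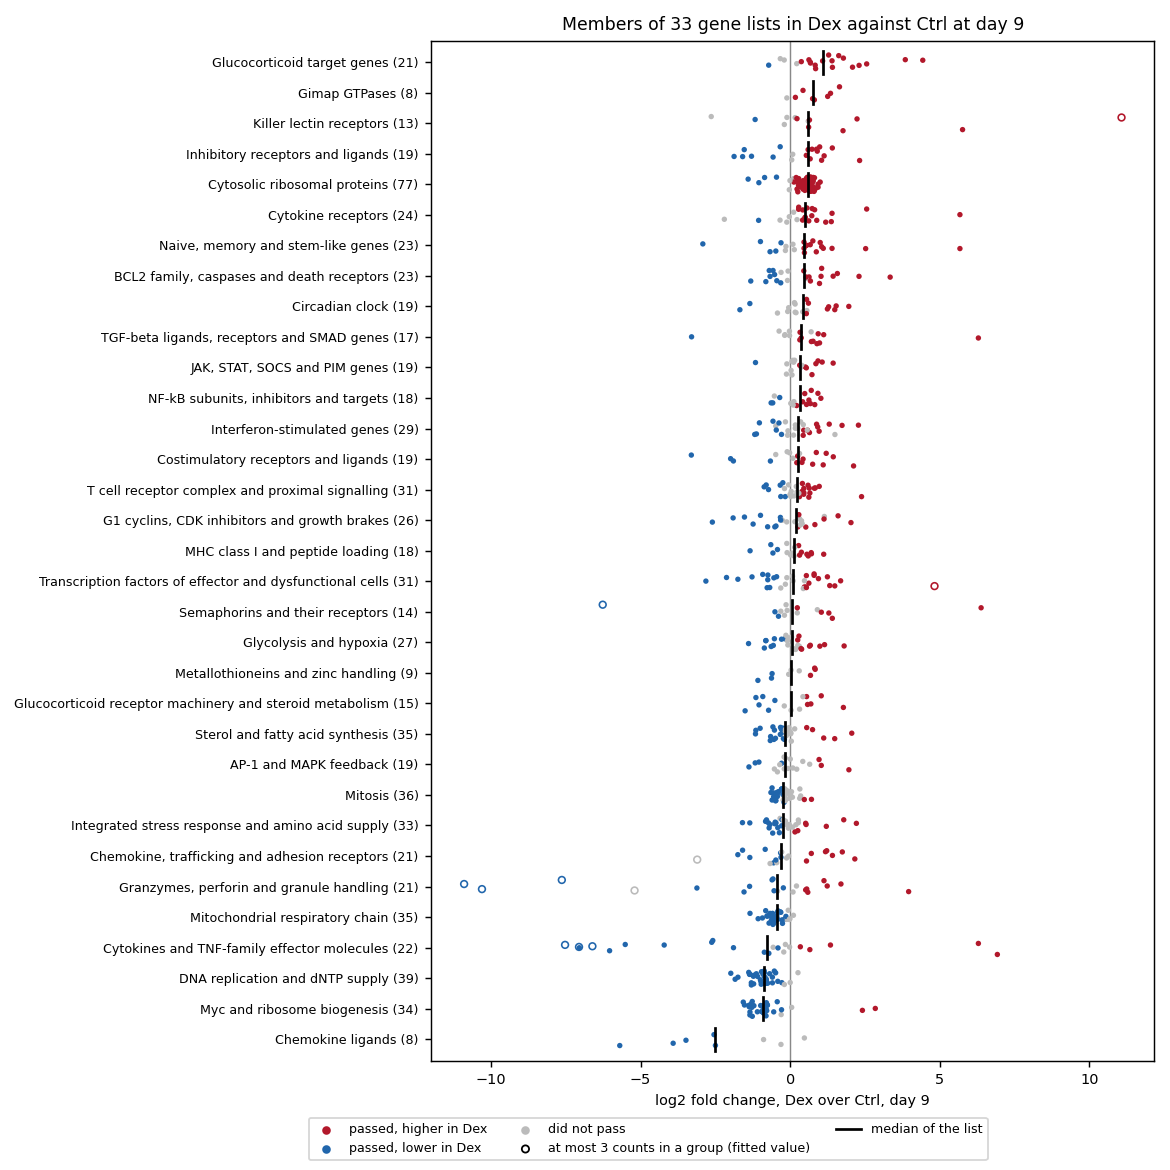
Log2 fold change (Dex over Ctrl, day 9) of every tested member of 33 gene lists; each point is a gene, red where it passed and was higher in Dex, blue where it passed and was lower, grey where it did not pass, and black bars are list medians. Open points had at most 3 counts in a group and their fitted values depend on the prior count. Glucocorticoid targets lie furthest right (median 1.08), and chemokine ligands (median -2.52), ribosome biogenesis genes (-0.90) and DNA replication genes (-0.88) furthest left.

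Genes of the receptor and of its known targets were higher in Dex, while the chaperones of the receptor were lower. Nr3c1, which encodes the glucocorticoid receptor, had 31.3, 30.6 and 31.8 CPM in the Dex libraries, against 14.5, 15.8 and 15.3 CPM in the Ctrl libraries. The lowest Dex library exceeded the highest Ctrl library (a log2 fold change of 1.04 ± 0.09 (SE), adjusted p = 3.32e-07). Fkbp5, a co-chaperone that lowers the receptor's affinity for its ligand, had 126, 111 and 124 CPM in the Dex libraries, against 35.1, 36.4 and 33.5 CPM in the Ctrl libraries (a log2 fold change of 1.78 ± 0.10). Hsp90aa1, the inducible form of the HSP90 chaperone, had the reverse pattern, with 375, 461 and 427 CPM in the Dex libraries, against 1212, 1172 and 1205 CPM in the Ctrl libraries. Its log2 fold change was -1.51 ± 0.12 (adjusted p = 7.44e-08). The co-chaperones Fkbp4 (-1.15 ± 0.12), Stip1 (-1.04 ± 0.10) and Ptges3 (-0.72 ± 0.09), which prepare the receptor for ligand, and the constitutive form Hsp90ab1 (-0.51 ± 0.05) fell as well. The coactivators Ncoa1 (0.69 ± 0.12) and Ncoa2 (0.58 ± 0.10) and the corepressor Ncor1 (0.55 ± 0.08) rose. Of 15 receptor machinery genes tested, 5 rose, 6 fell and 4 did not pass (28.2% of all tested genes rose and 27.4% fell).

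Among 21 tested genes known as glucocorticoid targets in various cells, 17 rose, 1 fell and 3 did not pass, with a median log2 fold change of 1.08. Next to Tsc22d3, whose product is the leucine zipper protein GILZ, the steepest rise was that of Pik3ip1, an inhibitor of PI3 kinase. Pik3ip1 had 175, 125 and 143 CPM in the Dex libraries, against 9.53, 11.2 and 9.97 CPM in the Ctrl libraries (a log2 fold change of 3.85 ± 0.27 (SE), adjusted p = 4.11e-08). Every Dex library was several times above every Ctrl library. Il1r2, a decoy receptor for interleukin 1, had 92.4 ± 13.7 CPM in Dex and 15.7 ± 5.65 CPM in Ctrl libraries, and Irs2, an insulin receptor adaptor, had 16.9 ± 1.73 CPM in Dex and 3.98 ± 0.575 CPM in Ctrl libraries. Their log2 fold changes were 2.56 ± 0.22 and 2.08 ± 0.20. Ddit4, an inhibitor of mTORC1, rose by 1.62 ± 0.14 on the log2 scale, Klf9 by 2.30 ± 0.21, Per1 by 1.29 ± 0.12 and Il7r, the interleukin 7 receptor, by 1.40 ± 0.12. Angptl4 was the member that fell (-0.72 ± 0.21, adjusted p = 0.0102, and lost at 0.0517 without Dex replicate 1). Dusp1, a MAP kinase phosphatase (0.22 ± 0.19, adjusted p = 0.352), and Anxa1 (-0.33 ± 0.45, adjusted p = 0.559), both classic targets in other cells, did not pass.

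The promoters of Sgk1 and Mt1 are shown because each holds a match to the receptor's palindrome. Windows of 250 bases before each annotated start (RefSeq, GRCm38.p6) were searched on both strands for the full element, the arms AGAACA and TGTTCT with any 3 bases between them, and for its inner part, GNACA and TGTNC at the same spacing, which lies within the full one. Capitals mark the match. The deposited tables are on mm9, so the windows were joined by gene symbol, which matched 9149 of 12320 tested genes.
Sgk1 (chr10:21993660-21993759, plus strand): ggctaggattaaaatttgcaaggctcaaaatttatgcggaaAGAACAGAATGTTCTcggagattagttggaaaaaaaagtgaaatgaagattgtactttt
Mt1 (chr8:94178949-94179048, plus strand): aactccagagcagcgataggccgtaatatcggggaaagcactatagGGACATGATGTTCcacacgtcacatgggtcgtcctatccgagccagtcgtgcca
Sgk1 encodes a kinase that is a textbook glucocorticoid target, and its match lay 189 to 175 bases before one of its 6 annotated starts. Sgk1 was the only tested gene with the full element, which was in 3 of 32851 windows. The inner element was in 0.544% of genes that rose (14 of 2575 with a window), 0.116% of genes that fell (3 of 2588) and 0.306% of all tested genes (28 of 9149). A match of letters is not a bound site, and elements far from the start were not searched. Sgk1 itself had 20.2, 20.9 and 20.4 CPM in the Dex libraries, against 11.0, 9.10 and 8.87 CPM in the Ctrl libraries (a log2 fold change of 1.08 ± 0.16 (SE), adjusted p = 4.48e-05). The lowest Dex library was above the highest Ctrl library.

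Day 3 offers a second set of libraries for the same question. Of the 21 target genes, 11 had risen and 0 had fallen with Dex in WT cells of day 3, in a fit of all 24 libraries. Of all 12666 genes in that fit, 487 had risen and 403 had fallen at day 3. The response of day 3 was thus narrower, with 890 genes called in WT cells against 7178 at day 9. The difference between the Dex effects of day 9 and day 3 was tested in the same fit, and 5017 of 12666 genes passed (39.6%). The 2 days share no library, but sample titles start with D at day 3 and with E at day 9, so the libraries' origin and the day cannot be told apart. Of the 21 target genes, 12 responded more and 2 less at day 9. Tsc22d3 changed by 4.46 ± 0.13 at day 9 and 1.72 ± 0.11 at day 3 in WT cells, against 0.24 ± 0.11 in cKO cells of day 3. The difference between the days was 2.74 ± 0.16 (adjusted p = 3.42e-11). Pik3ip1 changed by 3.88 ± 0.23 at day 9 and 1.15 ± 0.22 at day 3, and by 0.09 ± 0.22 in cKO cells, a difference between the days of 2.73 ± 0.31. Fkbp5 and Per1, a clock gene with glucocorticoid response elements, also responded more at day 9, by 0.73 ± 0.14 and 0.82 ± 0.15.

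The metallothioneins, small zinc-binding proteins, went the other way. Mt1 had 348, 381 and 374 CPM in the Dex libraries, against 221, 226 and 242 CPM in the Ctrl libraries at day 9, a log2 fold change of 0.68 ± 0.15 (adjusted p = 0.0015). In the fit of both days its change was 0.71 ± 0.15 at day 9 and 2.11 ± 0.17 at day 3, and 0.06 ± 0.17 in cKO cells. Both the Dex and the Ctrl level were above those of day 3, when WT Dex libraries had a mean of 100.7 CPM and WT Ctrl libraries 23.3 CPM of Mt1. The difference between days was -1.41 ± 0.22 for Mt1 (adjusted p = 1.9e-05) and -1.17 ± 0.30 for Mt2 (adjusted p = 0.00321). Mt1 and Mt2 are similar in sequence and may share reads. Mt3 fell at day 9 (-1.08 ± 0.15), as did Mtf1, the transcription factor that senses zinc (-0.60 ± 0.14), and the zinc importer Slc39a8 rose (0.82 ± 0.16). Of 9 metallothionein and zinc genes tested, 3 rose, 3 fell and 3 did not pass (66.7% called, against 55.6% of all tested genes). A zinc transporter gene counted among the falls lost its call when a library other than Ctrl or Dex replicate 2 was left out (adjusted p from 0.0719 to 0.12).

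**Figure D2:**
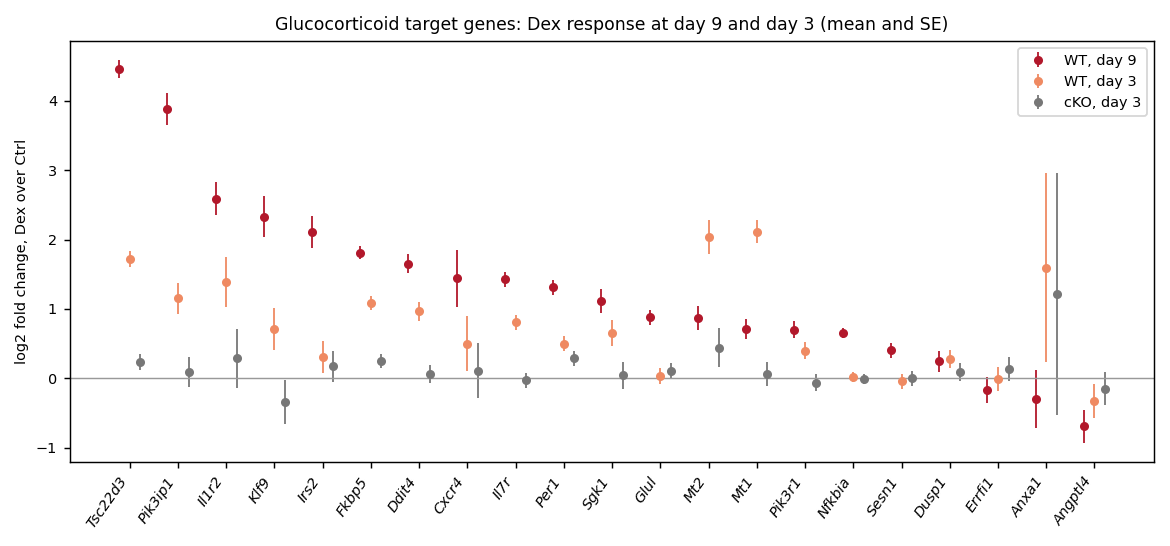
Log2 fold change (Dex over Ctrl, vertical axis) of 21 glucocorticoid target genes in WT cells at day 9 (red), WT cells at day 3 (orange) and cKO cells at day 3 (grey), from 1 fit of all 24 libraries with 3 libraries per group; bars are SE. Tsc22d3 and Pik3ip1 stand highest at day 9, Mt1 and Mt2 are higher at day 3, and the cKO points of Tsc22d3 and Pik3ip1 lie at 0.24 and 0.09.

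Cytokine genes of activated T cells were lower in Dex, with Il10 and Tgfb3 as steep exceptions. Of 22 tested cytokine and TNF-family genes, 13 fell, 5 rose and 4 did not pass, with a median log2 fold change of -0.79. Tnf, a proinflammatory cytokine, had 16.1, 18.3 and 21.9 CPM in the Dex libraries, against 104, 126 and 116 CPM in the Ctrl libraries (a log2 fold change of -2.62 ± 0.20 (SE), adjusted p = 6.14e-08). Lta, which encodes lymphotoxin alpha, had 46.4, 50.2 and 54.7 CPM in the Dex libraries, against 311, 302 and 296 CPM in the Ctrl libraries (a log2 fold change of -2.59 ± 0.18 (SE), adjusted p = 3.19e-08). The Dex libraries of both genes lay several times below the Ctrl libraries, with no overlap. The growth factor gene Il2 was nearly absent in Dex, with 5 counts over 3 Dex libraries and 801 over 3 Ctrl libraries (-7.05 ± 1.06, adjusted p = 9.07e-05). Csf2, which encodes GM-CSF, had 0 counts in Dex and 52 in Ctrl, at least 15.9-fold lower where the floor is 3 counts summed over the group's libraries, a call that was lost with the DESeq2 Wald test (adjusted p = 0.194). Il13 had 1 count in Dex and 282 in Ctrl, a Ctrl to Dex ratio of 259 (95% counting interval 46.1 to 10272). Il17a had 1 and 147 counts, a ratio of 135 (23.9 to 5372). Il3 (-5.51 ± 0.53), Lif (-1.89 ± 0.25), Osm (-0.86 ± 0.13) and Fasl, the death ligand (-0.71 ± 0.13), fell too. Il22 varied between the Ctrl libraries (17.0, 1.30 and 3.76 CPM in Ctrl) but stayed below 1 CPM in every Dex library (-4.21 ± 1.02, adjusted p = 0.0035).

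Il10, Tgfb3, Il16 and Il21 were among those that rose. Il10, an anti-inflammatory cytokine, had 104, 97.4 and 87.9 CPM in the Dex libraries, against 0.720, 1.36 and 0.313 CPM in the Ctrl libraries. Tgfb3, a TGF-beta ligand, had 28.2, 18.3 and 19.4 CPM in the Dex libraries, against 0.332, 0.395 and 0.104 CPM in the Ctrl libraries (a log2 fold change of 6.29 ± 0.48 (SE), adjusted p = 7.26e-08). No Ctrl library reached 2 CPM of either. Il16, a chemoattractant for CD4 cells, rose slightly (0.66 ± 0.15). Il21, a helper cytokine, had 4.44, 8.14 and 12.7 CPM in the Dex libraries, against 2.22, 1.53 and 6.11 CPM in the Ctrl libraries (1.35 ± 0.54, adjusted p = 0.0471), and its groups overlapped. This call was lost under 9 of 17 alternatives, by adjusted p it was lost at 0.149 without Ctrl replicate 1, at 0.167 without Ctrl replicate 2, at 0.0796 without Dex replicate 2 and at 0.212 without Dex replicate 3, and 3 members rose in place of 5 without Ctrl replicate 2 or Dex replicate 2. Maf, a transcription factor known to raise Il10 in T cells, had 85 counts in Dex and 3 in Ctrl, a Dex to Ctrl ratio of 30.8 (95% counting interval 10.2 to 152). Prdm1, another such factor, did not pass (0.08 ± 0.21, adjusted p = 0.776). Il10 changed by 6.95 ± 0.40 at day 9 and 2.85 ± 0.51 at day 3, a difference of 4.10 ± 0.85 (adjusted p = 0.000429) that was not called (adjusted p = 0.0504) without WT Ctrl replicate 3 of day 3. Tnf fell more at day 9 (-2.59 ± 0.19) than at day 3 (-0.95 ± 0.18), a difference of -1.65 ± 0.26 (adjusted p = 2.07e-05). For Ifng, which encodes interferon gamma, the difference between the days was -0.79 ± 0.65 (adjusted p = 0.357), so it was not resolved at this spread.

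Chemokine ligands fell without a riser. Of 8 tested, 5 fell and 3 did not pass, with a median of -2.52, the lowest of the 33 lists. The share called was 62.5%, against 55.6% of all tested genes. Xcl1, which attracts cross-presenting dendritic cells, had 27.2, 30.4 and 48.6 CPM in the Dex libraries, against 450.2, 366 and 370.1 CPM in the Ctrl libraries (a log2 fold change of -3.48 ± 0.27 (SE), adjusted p = 8.68e-08). Ccl3, an inflammatory chemokine, had 25.1, 56.0 and 34.7 CPM in the Dex libraries, against 643, 553 and 547 CPM in the Ctrl libraries. Ccl4, its close relative, had 36.1, 76.7 and 64.3 CPM in the Dex libraries, against 347, 375 and 313 CPM in the Ctrl libraries. The Dex values of all 3 genes lay below all their Ctrl values. Ccl9 (-2.50 ± 0.27) and Ccl1, the ligand of CCR8 (-5.70 ± 0.59), fell as well. Ccl5, another chemokine of T cells, was at 13.8 ± 0.295 CPM in Dex and 9.93 ± 5.56 CPM in Ctrl libraries (0.48 ± 0.26, adjusted p = 0.14, and passing at 0.00018 without Ctrl replicate 1). The receptor Ccr2 fell (-1.59 ± 0.36), while Ccr8 rose (1.74 ± 0.49).

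**Figure D3:**
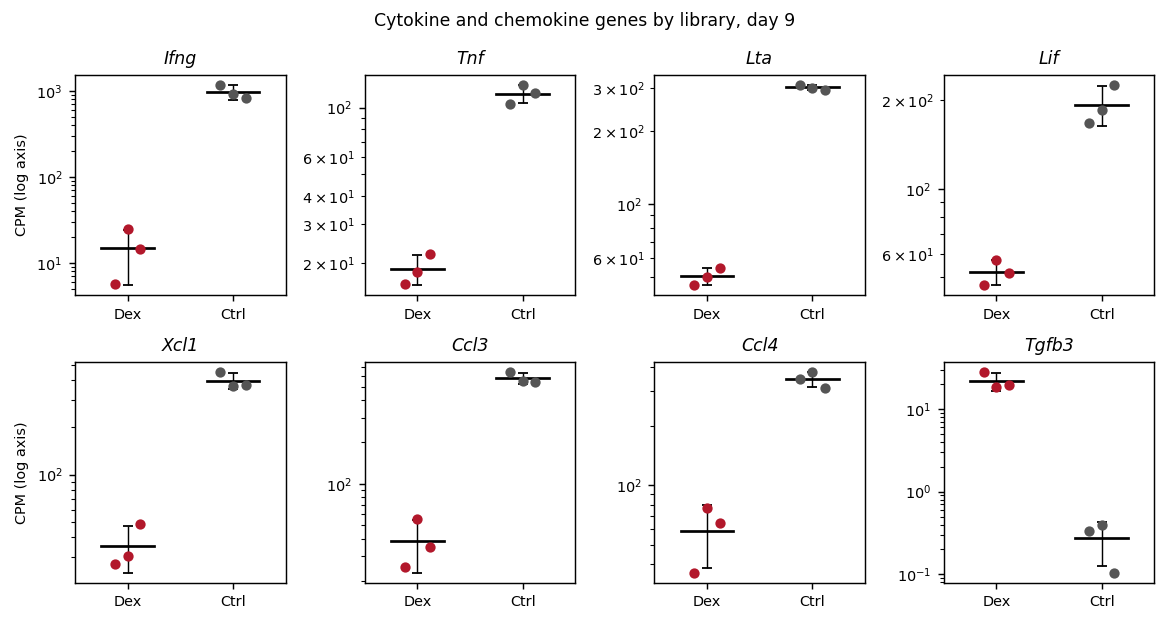
CPM of 8 cytokine and chemokine genes in the 3 Dex and 3 Ctrl libraries of day 9, each panel with its own log axis; points are libraries, bars mean ± SD (lower bar left out where it would reach 0). In the panels of Ifng, Tnf, Lta, Lif, Xcl1, Ccl3 and Ccl4 all Dex points lie below all Ctrl points, and in that of Tgfb3 all lie above.

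The cytotoxic machinery changed composition. Of 21 genes of granzymes, perforin and granule handling, 7 rose, 10 fell and 4 did not pass. Gzmb, which encodes granzyme B, the main granule protease of these cells, had 3949.7, 4279 and 4121 CPM in the Dex libraries, against 10816, 11103 and 9702 CPM in the Ctrl libraries (a log2 fold change of -1.36 ± 0.07 (SE), adjusted p = 4.69e-09). It was the largest loss of transcript among all genes that passed, at 6424 CPM. Prf1, the pore-forming perforin, had 213, 251 and 243 CPM in the Dex libraries, against 787, 660.1 and 614 CPM in the Ctrl libraries (-1.54 ± 0.13). Gzma, a tryptase-like granzyme, moved the opposite way, with 2251, 2241 and 1927 CPM in the Dex libraries, against 124, 217 and 72.3 CPM in the Ctrl libraries (a log2 fold change of 3.96 ± 0.33 (SE), adjusted p = 1.77e-07). Gzma gained 2002 CPM, so the ratio of Gzma to Gzmb transcripts changed in both terms. Gzmc (-3.12 ± 0.38) fell, and Gzmd, Gzme and Gzmg, its neighbours in the granzyme cluster, had 0 counts in Dex, against 745, 490 and 76 in Ctrl. Against the floor these were at least 228-fold, 150.1-fold and 23.3-fold lower, and the call of Gzmg was lost at 0.203 without Ctrl replicate 2 and, at 0.108 to 0.253, in the 3 fits of limma on FPKM. Gzmf, of the same cluster, was at 3.16 ± 2.12 CPM in Dex and 4.25 ± 4.67 CPM in Ctrl libraries (adjusted p = 0.622), and its direction turned without Ctrl replicate 1 or Dex replicate 3. The granzymes of this cluster are similar in sequence, so reads may be shared among them, and their single values are uncertain.

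Inhibitors of granzymes rose while parts of the granule pathway fell. Serpinb6b, an inhibitor of granzyme A, had 1546, 1424 and 1511 CPM in the Dex libraries, against 558, 376 and 448 CPM in the Ctrl libraries (a log2 fold change of 1.70 ± 0.13 (SE), adjusted p = 6.14e-08). Serpinb9, which inhibits granzyme B, had 681 ± 1.77 CPM in Dex and 453 ± 82.9 CPM in Ctrl libraries (0.59 ± 0.15). No Dex library of either gene overlapped a Ctrl library. Ctsc, the peptidase that activates granzymes (-0.54 ± 0.12), Stx11, needed for granule release (-0.57 ± 0.10), and Nkg7 (-0.61 ± 0.07) fell. Srgn, the granule proteoglycan (0.52 ± 0.06), and Ctsw (1.24 ± 0.24) rose. Rab27a (0.21 ± 0.10, adjusted p = 0.0903, and passing at 0.0201 without Dex replicate 3) and Unc13d (0.10 ± 0.07, adjusted p = 0.251), which dock and prime granules, did not pass.

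**Figure D4:**
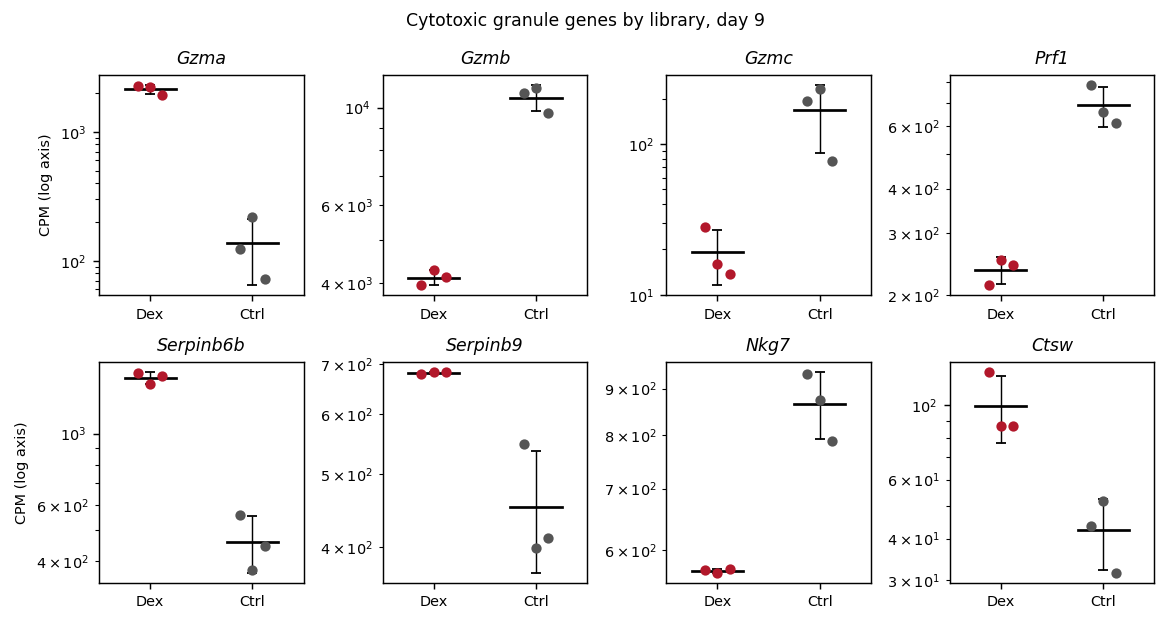
CPM of 8 granule genes in the 3 Dex and 3 Ctrl libraries of day 9, each panel with its own log axis; points are libraries and bars mean ± SD. Gzma, Serpinb6b, Serpinb9 and Ctsw are higher and Gzmb, Gzmc, Prf1 and Nkg7 lower in every Dex library.

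Inhibitory receptors rose as a rule but not throughout. Of 19 tested receptors and ligands, 11 rose, 6 fell and 2 did not pass, with a median of 0.60. Pdcd1, which encodes PD-1, had 265, 205 and 232 CPM in the Dex libraries, against 126, 112 and 116 CPM in the Ctrl libraries (a log2 fold change of 0.99 ± 0.13 (SE), adjusted p = 1.4e-05). Ctla4, a competitor of CD28, had 338, 389 and 363 CPM in the Dex libraries, against 181, 164 and 181 CPM in the Ctrl libraries (1.05 ± 0.07), and Lag3, a receptor for MHC class II, had 315, 315 and 338 CPM in the Dex libraries, against 163, 136 and 141 CPM in the Ctrl libraries (1.14 ± 0.10). Each of the 3 receptors was about 2-fold higher in Dex, with no overlap between the groups. Havcr2, which encodes TIM-3 (0.60 ± 0.20, adjusted p = 0.0194, and lost at 0.0779 without Ctrl replicate 3 and at 0.0687 without Dex replicate 3), Tigit (0.54 ± 0.08) and Cd274, which encodes PD-L1 (0.67 ± 0.11), rose by less. The steepest rise was that of Nt5e, which encodes CD73, the ectoenzyme that makes adenosine, with 61.5 ± 19.3 CPM in Dex and 12.3 ± 0.502 CPM in Ctrl libraries (a log2 fold change of 2.32 ± 0.20 (SE), adjusted p = 2.2e-07). Entpd1, which encodes CD39 and makes its substrate, rose by 0.88 ± 0.12. Cd200 fell, with 78.4 ± 11.5 CPM in Dex and 288 ± 31.3 CPM in Ctrl libraries (-1.88 ± 0.20), as did Procr (-1.54 ± 0.18), Pdpn (-1.59 ± 0.31) and Cd5 (-0.57 ± 0.08). Procr and Pdpn encode receptors found on dysfunctional T cells.

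At day 3 a part of these receptors had moved. Pdcd1 changed by 1.02 ± 0.13 at day 9 and 1.21 ± 0.13 at day 3, a difference of -0.20 ± 0.18 (adjusted p = 0.41), and Ctla4 by 1.08 ± 0.07 and 1.02 ± 0.07, a difference of 0.06 ± 0.10 (adjusted p = 0.692). Lag3 changed by 1.16 ± 0.11 at day 9 and -0.05 ± 0.11 at day 3, a difference of 1.21 ± 0.16 (adjusted p = 1.83e-06). Nt5e changed by 2.35 ± 0.19 and 0.17 ± 0.18, a difference of 2.18 ± 0.26 (adjusted p = 4.34e-07). Of these 4 receptors, the difference between the days passed for Lag3 and Nt5e alone. In cKO cells of day 3 the changes were -0.08 ± 0.13 for Pdcd1, -0.02 ± 0.07 for Ctla4, 0.05 ± 0.11 for Lag3 and 0.24 ± 0.18 for Nt5e.

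Among costimulatory receptors and ligands more rose than fell. Of 19 tested, 10 rose, 4 fell and 5 did not pass. Icos, an inducible costimulator of the CD28 family, had 476, 482 and 485 CPM in the Dex libraries, against 102, 115 and 115 CPM in the Ctrl libraries (a log2 fold change of 2.12 ± 0.11 (SE), adjusted p = 2.91e-09). Tnfrsf18, which encodes GITR, had 687 ± 18.8 CPM in Dex and 253 ± 4.30 CPM in Ctrl libraries (1.44 ± 0.07), and Slamf1 rose by 1.20 ± 0.09, Cd28 by 0.87 ± 0.09 and Tnfrsf9, which encodes 4-1BB, by 0.39 ± 0.09. The 4 that fell all encode ligands of the TNF family. They were Cd40lg (-3.30 ± 0.48), Tnfsf11, which encodes RANKL (-1.99 ± 0.38), Cd70 (-1.90 ± 0.30) and Tnfsf9, the ligand of 4-1BB (-0.66 ± 0.13).

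The signalling machinery of the T cell receptor rose in part. Of 31 tested genes, 14 rose, 7 fell and 10 did not pass (67.7% called, against 55.6% of all tested genes). Malt1, the protease that carries receptor signals to NF-kB, led them, with 165, 138 and 127 CPM in the Dex libraries, against 23.1, 29.4 and 29.7 CPM in the Ctrl libraries (a log2 fold change of 2.39 ± 0.13 (SE), adjusted p = 4.05e-09). The CD3 chains Cd3d (0.64 ± 0.08), Cd3e (0.46 ± 0.10) and Cd3g (0.41 ± 0.10) rose by less. Genes that damp the signal rose too: Ptpn22, a phosphatase (0.97 ± 0.09), Cblb, an E3 ligase (0.66 ± 0.07), and Dgka, a diacylglycerol kinase (0.81 ± 0.12). The adaptors Lat (-0.80 ± 0.10), Lcp2, which encodes SLP-76 (-0.87 ± 0.09), and Sh2d2a (-0.72 ± 0.11) fell. So did Cd247, another chain of the receptor complex (6685 counts in Dex and 8939 in Ctrl), and the kinase Lck (31168 counts in Dex and 39443 in Ctrl). These sums are not scaled for library size, and Ctrl libraries held more counts, so they overstate both falls. Among the T cell markers checked below, which include both genes, no log2 fold change was under -0.401. Cd8a, the coreceptor by which the cells had been isolated, had 356 ± 37.5 CPM in Dex and 350.5 ± 45.0 CPM in Ctrl libraries and did not pass (adjusted p = 0.883).

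Readouts downstream of the receptor went both ways. Egr2 (-1.75 ± 0.34), Egr3 (-2.13 ± 0.52), Nr4a2 (-0.92 ± 0.19) and Nr4a3 (-1.28 ± 0.38), which are induced by receptor signals, fell, while Nr4a1 (-0.31 ± 0.20, adjusted p = 0.203, and passing at 0.00545 without Dex replicate 2) and Egr1 (-0.11 ± 0.14, adjusted p = 0.529) did not pass. Of 19 AP-1 and MAP kinase feedback genes, 3 rose and 4 fell, a share of 36.8% against 55.6% of all tested genes. Without Ctrl replicate 3, Dex replicate 1 or Dex replicate 3, 2 fell. Jun (-1.04 ± 0.11), Fosl1 (-1.38 ± 0.45, adjusted p = 0.0166, and lost at 0.0721 without Ctrl replicate 1, at 0.0512 without Ctrl replicate 3, at 0.0624 without Dex replicate 1 and at 0.0603 without Dex replicate 3) and Spry2 (-1.17 ± 0.12) were among those that fell, and Fosl2 (1.04 ± 0.12) and the phosphatase Dusp2 (1.96 ± 0.32) among those that rose. Of 18 NF-kB genes 10 rose, 3 fell and 5 did not pass. Those that rose included the inhibitors Nfkbia (0.63 ± 0.07) and Tnfaip3, which encodes A20 (0.71 ± 0.11), as well as Bcl3 (1.03 ± 0.12) and the subunit Relb (0.93 ± 0.10). Nfkb2 (-0.58 ± 0.09) and Nfkbib (-0.64 ± 0.12) were among those that fell.

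Transcription factors of effector and dysfunctional cells went both ways. Of 31 tested, 13 rose, 11 fell and 7 did not pass. Eomes, a T-box factor of effector and memory cells, had 2.04, 0.245 and 1.74 CPM in the Dex libraries, against 10.5, 10.8 and 7.20 CPM in the Ctrl libraries (a log2 fold change of -2.82 ± 0.48 (SE), adjusted p = 0.000159), and its relative Tbx21, which encodes T-bet, had 33.2 ± 2.76 CPM in Dex and 55.6 ± 14.4 CPM in Ctrl libraries (-0.74 ± 0.14). Irf4, which scales with the strength of stimulation (-0.68 ± 0.15), Zbtb32 (-0.75 ± 0.09), Myb (-0.77 ± 0.14) and Irf8 (-0.45 ± 0.09) fell. Nfil3, a basic leucine zipper factor, had 99.9, 107 and 99.3 CPM in the Dex libraries, against 27.1, 38.4 and 43.3 CPM in the Ctrl libraries (1.49 ± 0.16). Zeb1 (1.32 ± 0.12), Gata3 (0.95 ± 0.13), Runx3 (0.80 ± 0.12), Runx1 (1.69 ± 0.34), Id2 (0.80 ± 0.12) and Hif1a (0.63 ± 0.07) rose. Tox, a factor of exhausted cells, was at 8.72 ± 1.60 CPM in Dex and 6.43 ± 0.894 CPM in Ctrl libraries (0.44 ± 0.24, adjusted p = 0.136), and Tcf7, a factor of stem-like cells, at 19.3 ± 1.25 CPM in Dex and 21.3 ± 3.37 CPM in Ctrl libraries (-0.14 ± 0.22, adjusted p = 0.619).

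Of 23 naive, memory and stem-like genes, 14 rose, 5 fell and 4 did not pass, with a median of 0.48. Il7r, by which resting T cells receive survival signals, had 399, 335 and 342 CPM in the Dex libraries, against 141, 129 and 137 CPM in the Ctrl libraries, and Bcl2, its survival effector, had 689, 617 and 592 CPM in the Dex libraries, against 293, 321 and 302 CPM in the Ctrl libraries. Both were higher in every Dex library, by 1.40 ± 0.12 and 1.05 ± 0.10 on the log2 scale. Satb1 (1.11 ± 0.09), Lef1 (0.67 ± 0.08), Foxo1 (0.76 ± 0.14) and Foxp1 (0.46 ± 0.08) rose, and the homing receptor Ccr7 had 539.5 ± 18.9 CPM in Dex and 369.6 ± 41.0 CPM in Ctrl libraries (0.55 ± 0.14). Ly6c2 was among the members that fell (-2.92 ± 0.40). The 5 falls of this list were 1 to 3 when a library other than Ctrl replicate 1 was left out. Cd44, a marker of activated cells, fell, with 134 ± 2.83 CPM in Dex and 342 ± 45.2 CPM in Ctrl libraries (-1.35 ± 0.10). Itgae, which encodes the integrin chain CD103, had few reads and rose, with 2.22 ± 0.205 CPM in Dex and 0.489 ± 0.0897 CPM in Ctrl libraries (2.16 ± 0.37), and its partner chain Itgb7 had 304 ± 40.7 CPM in Dex and 134 ± 34.0 CPM in Ctrl libraries (1.18 ± 0.20).

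Receptors for cytokines rose in most cases. Of 24 tested, 17 rose, 1 fell and 6 did not pass, with a median of 0.50. Il10ra, the receptor of the cytokine that rose, had 55.6, 52.6 and 58.0 CPM in the Dex libraries, against 26.1, 24.01 and 22.8 CPM in the Ctrl libraries (1.19 ± 0.10), and Ifngr2, a chain of the interferon gamma receptor, had 30.1 ± 3.11 CPM in Dex and 11.6 ± 2.19 CPM in Ctrl libraries (1.38 ± 0.15). Il6ra had 243 counts in Dex and 5 in Ctrl (5.68 ± 0.68). Il18r1 (0.74 ± 0.08), Il12rb2 (0.62 ± 0.07), Il4ra (0.56 ± 0.06) and Il17ra (0.82 ± 0.16) rose, and Il1rl1, which encodes ST2, fell (-1.05 ± 0.22). Without Dex replicate 2, 2 receptor genes fell. The chains of the interleukin 2 receptor did not pass: Il2ra was at 1394 ± 110.1 CPM in Dex and 1508 ± 109.6 CPM in Ctrl libraries (adjusted p = 0.328) and Il2rb at 636 ± 20.6 CPM in Dex and 649 ± 20.1 CPM in Ctrl libraries (adjusted p = 0.814). Among 19 JAK, STAT, SOCS and PIM genes 8 rose and 1 fell (47.4% called, against 55.6% of all tested genes). The feedback inhibitors Socs3 (1.44 ± 0.12), Socs1 (0.86 ± 0.15) and Socs2 (0.51 ± 0.09) and the kinases Jak3 (0.93 ± 0.11) and Pim2 (1.07 ± 0.08) rose, and Pim3 fell (-1.16 ± 0.12). Of 17 TGF-beta pathway genes 10 rose and 1 fell (64.7% called, against 55.6% of all tested genes). The receptors Tgfbr1 (1.12 ± 0.25) and Tgfbr2 (0.71 ± 0.18), the signal carrier Smad4 (0.77 ± 0.15) and the feedback inhibitor Smad7 (0.98 ± 0.22) were among the risers. Tgfb2 was the member that fell (-3.30 ± 0.65), and without Dex replicate 3, 2 fell.

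DNA replication genes fell nearly as a block, and mitosis genes fell in part. Of 39 tested genes of replication and nucleotide supply, 36 fell, 0 rose and 3 did not pass, with a median of -0.88. Tyms, which makes thymidylate, had 29.4, 32.7 and 35.0 CPM in the Dex libraries, against 114, 126 and 108 CPM in the Ctrl libraries (a log2 fold change of -1.84 ± 0.10 (SE), adjusted p = 5.46e-09). Cdc6, which loads the replicative helicase, had 27.2, 28.0 and 26.5 CPM in the Dex libraries, against 87.0, 96.0 and 91.1 CPM in the Ctrl libraries (-1.75 ± 0.09), and Pcna, the sliding clamp of DNA polymerases, had 107, 115 and 109 CPM in the Dex libraries, against 273, 298 and 277 CPM in the Ctrl libraries (-1.36 ± 0.07). No Dex library of the 3 genes overlapped a Ctrl library. The helicase subunits Mcm2 to Mcm7 all fell, from -0.41 ± 0.06 for Mcm6 to -1.18 ± 0.08 for Mcm5. Both subunits of ribonucleotide reductase fell, Rrm2 (-1.98 ± 0.08) and Rrm1 (-1.21 ± 0.08), and so did Tk1 (-1.39 ± 0.09), Fen1 (-1.34 ± 0.10), Rfc5 (-1.23 ± 0.09) and Uhrf1 (-0.86 ± 0.07). Of 36 mitosis genes 18 fell, 2 rose and 16 did not pass, with a median of -0.23 (55.6% called, the same share as of all tested genes). Without Ctrl replicate 1, 10 fell and 5 rose, and without Dex replicate 1, 9 fell. Cdk1, the mitotic kinase (-0.61 ± 0.14), Birc5 (-0.60 ± 0.11) and Plk1 (-0.55 ± 0.12) fell. Mki67, which encodes the proliferation marker Ki-67, had 83.2, 107 and 100.2 CPM in the Dex libraries, against 113, 109 and 106 CPM in the Ctrl libraries, a smaller shift (-0.18 ± 0.09, adjusted p = 0.0941, and passing at 0.0284 without Dex replicate 2). Top2a did not pass either (-0.12 ± 0.13, adjusted p = 0.461), and Nusap1 (0.71 ± 0.16) and Anln (0.47 ± 0.14) rose.

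At day 3, 5 of the 39 replication genes had risen with Dex in WT cells and 0 had fallen (487 and 403 of all 12666 genes). Of the 39, 36 differed between the days, all with a lower change at day 9 (19.2% of all genes had one), and the median change was -0.85 at day 9 and 0.11 at day 3. Rrm2 changed by -1.96 ± 0.09 at day 9 and -0.01 ± 0.09 at day 3, a difference of -1.94 ± 0.13 (adjusted p = 1.43e-10). Tyms changed by -1.81 ± 0.11 and 0.02 ± 0.10, a difference of -1.83 ± 0.15, and Cdc6 by -1.72 ± 0.13 and 0.08 ± 0.13, a difference of -1.79 ± 0.18. Of the 36 mitosis genes 15 had a lower and 2 a higher change at day 9. For Mki67 the difference was -0.36 ± 0.13 (adjusted p = 0.0333), a call that was lost, at adjusted p from 0.0533 to 0.12, when any 1 of 6 libraries was left out. These were Ctrl replicates 1 and 3 and Dex replicate 2 of day 3, and Ctrl replicates 1 and 2 and Dex replicate 1 of day 9.

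The promoters of Mcm6 and Cdc6 are shown for their E2F sites. E2F factors, released when G1 cyclin kinases act on the retinoblastoma protein, are known to drive replication genes. Capitals mark TTTGGCGC in Mcm6 and TTTCCCGC, read here on the other strand, in Cdc6.
Mcm6 (chr1:128359726-128359835, minus strand): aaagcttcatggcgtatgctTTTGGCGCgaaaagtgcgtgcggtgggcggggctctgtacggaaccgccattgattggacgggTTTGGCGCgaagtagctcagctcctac
Cdc6 (chr11:98907971-98908070, plus strand): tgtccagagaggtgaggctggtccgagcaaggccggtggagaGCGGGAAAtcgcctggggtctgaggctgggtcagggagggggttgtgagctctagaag
The Mcm6 window held the site at 110 to 103 and at 47 to 40 bases before the start, and that of Cdc6 at 138 to 131 bases before it. Among 32 replication genes with a window, 3 held TTTGGCGC (9.38%, against 0.951% of tested genes) and 2 held TTTCCCGC (6.25%, against 2.05%). Among genes that fell at all the shares were 1.28% and 2.67%, and among genes that rose 0.621% and 1.67%. Neither site was found in the windows of 31 mitosis genes. Of the mitosis genes 74.2% held the CCAAT box, against 65.6% of replication genes and 41.0% of tested genes. The share was higher still in the lists of MHC class I (81.2%) and of sterol and fatty acid synthesis (78.3%), so it was not particular to cell cycle genes.

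Genes that act in G1, ahead of replication, went both ways. Of 26 tested cyclins, CDK inhibitors and growth brakes, 7 rose, 10 fell and 9 did not pass (28.2% of all tested genes rose and 27.4% fell). Ccne2, a cyclin of the G1 to S transition, had 15.2, 17.6 and 17.8 CPM in the Dex libraries, against 63.9, 60.4 and 65.7 CPM in the Ctrl libraries (-1.91 ± 0.11), and Ccne1 (-1.24 ± 0.07), Ccnd3 (-0.99 ± 0.08) and Cdk4 (-0.75 ± 0.07) fell. Cdkn1b, which encodes the cyclin kinase inhibitor p27, had 26.2, 25.7 and 27.8 CPM in the Dex libraries, against 8.86, 8.42 and 8.98 CPM in the Ctrl libraries (1.60 ± 0.12). Btg1, an antiproliferative gene of resting lymphocytes, had 71.9, 73.4 and 73.0 CPM in the Dex libraries, against 17.1, 17.7 and 18.5 CPM in the Ctrl libraries (a log2 fold change of 2.03 ± 0.10 (SE), adjusted p = 2.11e-09). Cdkn2d (0.83 ± 0.08), Foxo3 (1.13 ± 0.19) and Rb1, the retinoblastoma gene (0.52 ± 0.10), rose. Cdkn1a, which encodes the inhibitor p21, fell (-0.47 ± 0.10), and the brakes Btg2 (0.37 ± 0.20, adjusted p = 0.134) and Rbl1 (0.34 ± 0.20, adjusted p = 0.167) did not pass. Of the E2F genes in the replication list, E2f8 fell (-1.22 ± 0.19) and E2f2 (0.26 ± 0.13, adjusted p = 0.108) did not pass.

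Genes for making ribosomes fell while genes for ribosomal proteins rose. Of 34 genes of the Myc network and ribosome biogenesis, 30 fell, 2 rose and 2 did not pass, with a median of -0.90. Myc, the master factor of growth, had 377, 371 and 363 CPM in the Dex libraries, against 616, 619 and 652 CPM in the Ctrl libraries (-0.76 ± 0.11), and its antagonists Mxd1 and Mxd4 were the 2 that rose. Mxd1 had 87.3, 63.2 and 65.9 CPM in the Dex libraries, against 13.0, 13.2 and 14.4 CPM in the Ctrl libraries (a log2 fold change of 2.41 ± 0.20 (SE), adjusted p = 1.46e-07). Nolc1, a nucleolar scaffold (-1.57 ± 0.16), Grwd1 (-1.53 ± 0.10), Nop56, a core protein of snoRNA particles (-1.34 ± 0.11), Polr1b, a subunit of RNA polymerase I (-1.35 ± 0.13), and Ncl, which encodes nucleolin (-0.76 ± 0.05), fell. Npm1 did not pass (0.05 ± 0.05, adjusted p = 0.369). In the same libraries 70 of 77 cytosolic ribosomal protein genes rose, 4 fell and 3 did not pass, with a median of 0.59. Together they held 121200 CPM in Dex and 81910 CPM in Ctrl libraries. Rpl3 had 5833, 5616 and 5941 CPM in the Dex libraries, against 3318, 3294 and 3284 CPM in the Ctrl libraries (0.81 ± 0.05), and Rpl23a rose by 0.93 ± 0.05 and Rps3 by 0.62 ± 0.04. Ribosomal protein genes have many processed copies in the genome, so reads may be shared and single members are uncertain. The members that fell were Rpl30, Rpl34, Rpl7l1 and Rps27l, the last a homologue induced by p53. The elongation factors Eef1a1 (17582 ± 391 CPM in Dex and 9488 ± 163 CPM in Ctrl libraries) and Eef2 (7771 ± 91.3 CPM in Dex and 5320.1 ± 106 CPM in Ctrl libraries) rose as well, by 0.89 ± 0.05 and 0.55 ± 0.05.

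Neither pattern was present at day 3. The median change of the biogenesis list was -0.87 at day 9 and 0.00 at day 3 in the fit of both days, and that of ribosomal protein genes 0.62 and 0.04. The difference between the days passed for 33 of 34 biogenesis genes (30 lower and 3 higher at day 9) and 70 of 77 ribosomal protein genes (67 higher and 3 lower). The rises of ribosomal protein genes ran alongside the share of Rn45s, 14.6% in Dex and 9.11% in Ctrl libraries, whose part in them was not tested. With Rn45s left out before scaling, 69 ribosomal protein genes rose and 4 fell.

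**Figure D5:**
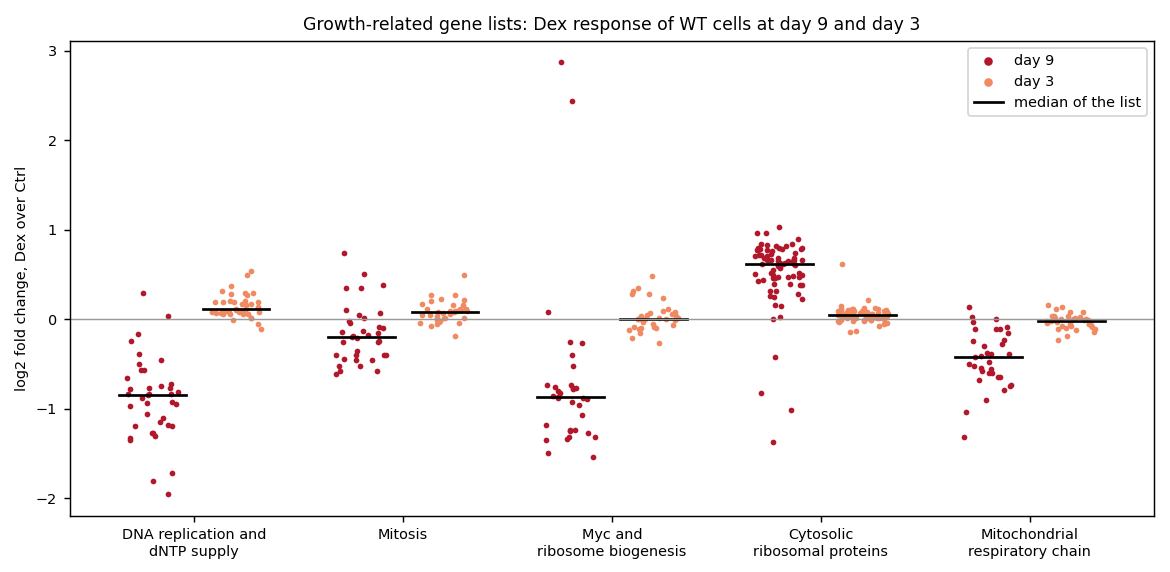
Log2 fold change (Dex over Ctrl, vertical axis) of each tested member of 5 growth-related lists in WT cells at day 9 (red) and day 3 (orange), from 1 fit of all 24 libraries; black bars are list medians. At day 9 the medians of replication, ribosome biogenesis and respiratory chain genes lie at -0.85, -0.87 and -0.42 and that of ribosomal protein genes at 0.62, and all day 3 medians lie between -0.02 and 0.11.

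Genes of energy metabolism differed by pathway. Of 35 nuclear genes of the mitochondrial respiratory chain 29 fell, 0 rose and 6 did not pass, with a median of -0.45. Cycs, which encodes cytochrome c, had 170.2, 191 and 194 CPM in the Dex libraries, against 476, 476 and 455 CPM in the Ctrl libraries (a log2 fold change of -1.34 ± 0.08 (SE), adjusted p = 1.12e-08), and Ndufa4 (-1.07 ± 0.09), Atp5g3 (-0.93 ± 0.06) and Uqcrfs1 (-0.82 ± 0.06) were among the steepest. Glycolysis was split, with 9 of 27 genes up and 9 down (66.7% called, against 55.6% of all tested genes). Ldha, which makes lactate, had 2779, 2721 and 2741 CPM in the Dex libraries, against 4981, 4981 and 5027 CPM in the Ctrl libraries (-0.86 ± 0.06), and Hk2, the inducible hexokinase (-1.39 ± 0.12), Slc2a1, the glucose transporter GLUT1 (-0.81 ± 0.16), and the lactate exporter Slc16a1 (-0.82 ± 0.16) fell. Aldoc (1.80 ± 0.16), Aldoa (0.67 ± 0.10), Gpi1 (0.65 ± 0.11) and Egln3, an oxygen sensor and HIF target (1.15 ± 0.18), rose. Of 35 sterol and fatty acid genes 5 rose, 16 fell and 14 did not pass, a share of 60.0% that is near that of all genes. Fasn, fatty acid synthase (-1.004 ± 0.08), Idi1, of sterol synthesis (-1.16 ± 0.09), and Acaca (-0.67 ± 0.11) fell, and Abcg1, a cholesterol exporter and known target of the sterol sensor LXR, rose (1.12 ± 0.20).

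The integrated stress response and amino acid supply also divided. Of 33 tested genes 7 rose, 15 fell and 11 did not pass (66.7% called, against 55.6% of all tested genes). Ddit3, which encodes the stress factor CHOP, had 76.5, 83.8 and 83.6 CPM in the Dex libraries, against 23.7, 21.6 and 25.2 CPM in the Ctrl libraries (a log2 fold change of 1.79 ± 0.10 (SE), adjusted p = 4.05e-09), Atf5 rose by 1.21 ± 0.26 and Trib3 by 0.53 ± 0.15. The serine and folate enzymes Phgdh (-0.70 ± 0.09), Psph (-0.82 ± 0.11), Shmt1 (-1.59 ± 0.17) and Shmt2 (-0.67 ± 0.12) fell, and so did the transporters Slc7a11, which imports cystine (-1.35 ± 0.13), and Slc7a5 (-0.72 ± 0.16). Vldlr, a lipoprotein receptor induced by ATF4, had 19.7, 15.6 and 14.7 CPM in the Dex libraries, against 4.32, 2.88 and 3.55 CPM in the Ctrl libraries (2.21 ± 0.20). Promoters of Vldlr and Slc7a11 are shown because both hold the amino acid response element TGATGNAA (capitals, either strand) and their transcripts moved in opposite directions.
Vldlr (chr19:27216790-27216859, plus strand): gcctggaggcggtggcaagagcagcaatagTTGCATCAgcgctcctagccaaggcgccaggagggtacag
Slc7a11 (chr3:50443634-50443703, minus strand): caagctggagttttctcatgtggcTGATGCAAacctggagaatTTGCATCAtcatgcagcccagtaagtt
The Vldlr window held it at 200 to 193 bases before the start and the Slc7a11 window at 66 to 59 and 47 to 40 bases. In this list 9 of 28 genes with a window held the element (32.1%), against 2.47% of tested genes. Of these 9, Vldlr rose, Slc7a11 and Gars (-0.42 ± 0.10) fell and 6 did not pass.

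Genes of cell death and survival moved on both sides. Of 23 tested, 11 rose, 8 fell and 4 did not pass. Bcl2l11, which encodes BIM, the killer protein through which glucocorticoids act on thymocytes, had 29.3, 16.6 and 15.3 CPM in the Dex libraries, against 1.33, 2.99 and 1.72 CPM in the Ctrl libraries (a log2 fold change of 3.34 ± 0.38 (SE), adjusted p = 3.3e-06). Bmf (2.30 ± 0.43) and Bbc3, which encodes PUMA (1.58 ± 0.27), of the same BH3-only class, rose too, and so did the death receptor Fas (1.44 ± 0.09). Their antagonists Bcl2 (1.05 ± 0.10) and Mcl1 (0.63 ± 0.08) rose in the same libraries. The effector Bax (-0.67 ± 0.08) and the BH3-only Bid (-0.70 ± 0.10) fell.

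Genes of MHC class I and peptide loading went both ways. H2-K1 (0.71 ± 0.06) and H2-D1 (0.70 ± 0.05), the classical class I chains, whose reads may be shared, and B2m, their partner (0.56 ± 0.05), rose, as did the class I transactivator Nlrc5 (0.60 ± 0.09). The chaperones Calr (-1.34 ± 0.09), Canx (-0.42 ± 0.08) and Pdia3 (-0.58 ± 0.05) fell. Of 18 genes of this list 8 rose, 4 fell and 6 did not pass, among them the peptide transporter subunit Tap2 (0.15 ± 0.08, adjusted p = 0.116). The share called was 66.7%, against 55.6% of all tested genes. Of 8 Gimap genes, which act in lymphocyte survival and lie in 1 cluster, 7 rose, 0 fell and Gimap5 did not pass (adjusted p = 0.269). The call of 1 that rose was lost with library totals only (adjusted p = 0.155) and with Rn45s left out (adjusted p = 0.055). It was also lost when any library other than Ctrl replicate 1 was left out. Gimap3 had 744, 624 and 644 CPM in the Dex libraries, against 226, 224 and 191 CPM in the Ctrl libraries (1.65 ± 0.09), and Gimap6 (1.35 ± 0.12) and Gimap7 (1.25 ± 0.13) rose by less. Of 29 interferon-stimulated genes 10 rose, 7 fell and 12 did not pass (58.6%, also near that of all genes). Gbp2 (0.97 ± 0.12), Irf9 (0.45 ± 0.09) and Ifi44 (1.31 ± 0.32) rose, and Slfn5 (-1.13 ± 0.12) and Zbp1 (-1.03 ± 0.25) fell. Without Ctrl replicate 2 or Dex replicate 3, 4 fell.

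Receptors shared with natural killer cells included some of the largest ratios. Of 13 killer lectin genes 7 rose, 1 fell and 5 did not pass (61.5% called, against 55.6% of all tested genes). Klra6 had 754 counts in Dex and 0 in Ctrl, at least 274-fold higher against the floor of 3 counts, and Klra7 had 10.2, 12.8 and 10.7 CPM in the Dex libraries, against 0.166, 0.0565 and 0.365 CPM in the Ctrl libraries (5.76 ± 0.46). Klra3 rose by 2.23 ± 0.40 and Klrc1, which encodes the inhibitory NKG2A, by 0.62 ± 0.07. The Klra genes are near copies of each other, so their reads may be shared and their single values are uncertain. Klri2 fell (-1.17 ± 0.15), and Klrk1, which encodes the activating NKG2D, rose slightly (0.23 ± 0.06). Among 14 semaphorin and receptor genes 5 rose, 3 fell and 6 did not pass, a share called of 57.1% that is near the 55.6% of all tested genes. Sema3a, a secreted repulsive cue, had 56.7, 60.2 and 53.6 CPM in the Dex libraries, against 0.720, 0.565 and 0.731 CPM in the Ctrl libraries, and its receptor subunits Nrp1 (1.29 ± 0.20) and Plxna1 (1.04 ± 0.26) rose with it. Without Dex replicate 3, 1 fell. Sema6d had 1 count in Dex and 117 in Ctrl, a Ctrl to Dex ratio of 108 (95% counting interval 18.9 to 4283).

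The remaining steepest changes lay outside these lists. Plaur, the urokinase receptor, had 104, 105 and 105 CPM in the Dex libraries, against 3.21, 2.03 and 2.56 CPM in the Ctrl libraries (a log2 fold change of 5.33 ± 0.15 (SE), adjusted p = 5.86e-12). The 3 Dex libraries lay within 2 CPM of each other. Ecm1, an extracellular matrix protein, had 43.3 ± 5.62 CPM in Dex and 1.78 ± 0.842 CPM in Ctrl libraries (4.60 ± 0.21), and Ramp3, a partner of calcitonin-type receptors, had 57.8 ± 8.54 CPM in Dex and 2.79 ± 1.41 CPM in Ctrl libraries (4.37 ± 0.23). Enpp2, which encodes autotaxin, had 19.7 ± 1.36 CPM in Dex and 0.474 ± 0.118 CPM in Ctrl libraries (5.36 ± 0.28). Irgc1 had 506 counts in Dex and 3 in Ctrl, a Dex to Ctrl ratio of 184 (95% counting interval 62.4 to 893). Among the falls, Il1a, an alarm cytokine, had 1.15 ± 1.13 CPM in Dex and 48.9 ± 5.39 CPM in Ctrl libraries (-5.40 ± 0.66), Olr1, a receptor for oxidised lipoprotein, 0.143 ± 0.141 CPM in Dex and 12.3 ± 3.01 CPM in Ctrl libraries (-6.35 ± 0.61), and Kmo, a kynurenine pathway enzyme, 0.433 ± 0.188 CPM in Dex and 10.1 ± 1.58 CPM in Ctrl libraries (-4.52 ± 0.33). Igfbp2 (-4.15 ± 0.52), Slc1a2, a glutamate transporter (-4.14 ± 0.52), and Ugt1a10 (-6.21 ± 0.59) fell too. Ugt1a10 shares exons with the other Ugt1a transcripts, so its reads cannot be given to it alone.

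Markers of other cell types were checked in the same libraries. Cd3d, Cd3e and the other T cell markers had a summed level of 2744 to 3033 CPM in Dex and 2568 to 2781 CPM in Ctrl libraries, far above every other marker list. Of these 9 markers 4 rose, 3 (Cd247, Thy1 and Lck) fell and 2 did not pass. The 5 CD4 and Treg cell markers had a summed level of 51.9 to 62.9 CPM in Dex and 53.4 to 59.7 CPM in Ctrl libraries, here and for the lists below by library totals without TMM factors. Most of it was Ikzf4 (2109 counts in Dex and 2056 in Ctrl), which did not pass, while Zbtb7b rose (630 counts in Dex and 346 in Ctrl), Cd40lg fell, and Cd4 itself had 14 counts in Dex and 22 in Ctrl. The 7 B cell markers had a summed level of 20.5 to 25.9 CPM in Dex and 17.2 to 19.2 CPM in Ctrl libraries. Most of it lay in Cd79b (521 counts in Dex and 514 in Ctrl) and Ebf1 (512 counts in Dex and 435 in Ctrl), which did not pass. Without Ctrl replicate 1 or Dex replicate 1, Ebf1 passed (adjusted p of 0.0289 and 0.0158). Cd22 rose (41 counts in Dex and 11 in Ctrl), a call lost without Ctrl replicate 1 or Dex replicate 1 (adjusted p of 0.0533 and 0.0629). The other B cell markers were sparse, and 3 of them, Ms4a1 and Pax5 included, had 0 counts in all 6 libraries. The 11 myeloid and dendritic markers had a summed level of 25.9 to 27.0 CPM in Dex and 9.60 to 10.5 CPM in Ctrl libraries, with no overlap. Of 6 tested, Itgam (97 counts in Dex and 10 in Ctrl), Cd68 (482 counts in Dex and 127 in Ctrl) and Zbtb46 (586 counts in Dex and 258 in Ctrl) rose. The call of Itgam was lost with limma on log2(FPKM + 1), at an adjusted p of 0.0555 with the filter on low values and 0.125 without it. Lyz2, a defining myeloid marker, had 0 counts in Dex and 2 in Ctrl, and Emr1 and Clec9a had 0 in all 6 libraries. Hbb-b1, a red cell gene, had 120 counts in Dex and 4 in Ctrl and was too low to be tested. The part of these cell types in the results was not tested.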

How the data were processed

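RNA was measured by sequencing in 24 libraries of mouse CD8+ T cells, in 8 groups of 3. The authors deposited estimated counts per gene (RSEM) and TMM-scaled FPKM values for 23366 genes. TopHat, RSEM, DESeq and mm9 are named in the submitters' processing notes, with no versions, and the annotation and strand setting are not given in the sources used here. Estimated counts were rounded to whole numbers. The 12 libraries of day 9 entered 1 fit of edgeR's quasi-likelihood test with TMM scaling, on genes kept by its filter on low counts (minimum count 10, minimum total 15). Those with IL27 were among them. P-values were adjusted by the Benjamini-Hochberg method over all genes tested, with a threshold of 0.05. SE is the size of the log2 fold change divided by the square root of F. The Dex effect of day 9 minus that of day 3 came from the same test on all 24 libraries. The deposited FPKM were used in alternatives with limma, on log2(FPKM + 1) and log2(FPKM + 0.1), with and without a filter at a mean of 1 FPKM. DESeq2 was another alternative. Counting intervals and floors cover counting error only.

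The genes of each list, the lists, and the rule for naming genes were chosen with earlier results of these data known. The rule named a fixed set, up to 8 list members of lowest p, up to 3 abundant members that did not pass, short lists in full, the largest changes on the log2 and CPM scales, and genes at 0 in a group. Of 304 genes named in the text, 233 fell under it, and 71 further list members or markers were named for their roles after their values were seen. Some genes are not reported here. Samples were grouped by their labels. Versions were R 4.3.3, edgeR 4.0.16, limma 3.58.1, DESeq2 1.42.0, Python 3.11.15, pandas 2.3.3, scipy 1.17.1 and matplotlib 3.10.9.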

Additional observations from a re-analysis of the deposited data

Results flagged for a closer look

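For 17 genes the Dex effect of day 9 was set against that of day 3 in WT cells, and for 14 of them the difference itself passed (edgeR's quasi-likelihood test on 24 libraries, Benjamini-Hochberg adjusted over 12666 genes, of which 39.6% passed). Differences are log2 fold changes at day 9 minus those at day 3. Among glucocorticoid targets they were 2.74 ± 0.16 for Tsc22d3, 2.73 ± 0.31 for Pik3ip1, 0.82 ± 0.15 for Per1 and 0.73 ± 0.14 for Fkbp5, and on the other side -1.41 ± 0.22 for Mt1 and -1.17 ± 0.30 for Mt2. Among cytokines they were 4.10 ± 0.85 for Il10 and -1.65 ± 0.26 for Tnf, and among inhibitory receptors and ectoenzymes 1.21 ± 0.16 for Lag3 and 2.18 ± 0.26 for Nt5e. Among genes of the cell cycle they were -1.94 ± 0.13 for Rrm2, -1.83 ± 0.15 for Tyms, -1.79 ± 0.18 for Cdc6 and -0.36 ± 0.13 for Mki67. The leading letter of the titles changes with the day, so the day and any difference that this letter marks cannot be told apart.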

How the results depend on the processing

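The number of genes called at day 9 (6850) was 6115 to 7178 over 17 alternatives, and 6115 to 6357 when 1 library was left out. The share of calls that were higher in Dex was 46.4% to 53.4%, against 50.7%, and no gene called in both fits changed sign under any alternative. No alternative moved the median of all genes by 0.1, the largest shift being -0.053 with library totals only. Stability of single genes was counted over 464 genes, which are those named in the text, all that the naming rule picks and 15 other list members. Those 15 were left unnamed after their calls had been seen to be lost under 1 to 10 alternatives each, so the genes in the text alone would overstate how steady the calls are. Of 7852 values, 7560 kept direction and call, 139 lost the call, 83 gained it and 70 turned direction. A call was lost or a direction turned under at least 1 alternative for 58 genes. Of the genes in the text, those whose direction turned had not passed. With library totals only, Cd8a was at -0.0303 and Npm1 at -0.0024. With 1 library left out, the lowest and highest values were -0.0665 and 0.116 for Cd8a, -0.0493 and 0.242 for Prdm1, -0.852 and 1.01 for Gzmf, -1.64 and 0.106 for Cd4 and -0.265 and 0.0042 for Egr1. The difference between the days turned for Ctla4 with library totals only (-0.0038), and that of Ifng passed without a filter on low counts (-0.82). The cause was not tested. Deviations of same-numbered replicates of Dex and Ctrl from their group means had correlations of -0.09, -0.13 and 0.0048. Those of differently numbered replicates ranged from -0.07 to 0.145. With so few libraries per group these values cannot show whether the numbers mark pairs, which the labels do not state. The replicate block gave 6752 calls, 6662 of them shared. A fit of only the 6 Dex and Ctrl libraries of day 9, without those with IL27, gave 7066 calls among 11776 genes, 6651 of them shared. Genes below 10 CPM passed least often, and there a missed call says little.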

Other observations

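Of 19 circadian clock genes tested, 8 rose, 2 fell and 9 did not pass, a share called of 52.6% that is near the 55.6% of all tested genes. The 2 falls were 0 or 1 when any library other than Dex replicate 3 was left out, and the rises were 6 to 8. Per1, a repressor of the clock, and Nfil3 rose as given above. Dbp, an output factor of the clock, had a log2 fold change of 1.96 ± 0.31 (adjusted p = 7.35e-05).

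On the scale of transcripts rather than ratios, cytoskeleton genes stood on both sides. Actb, cytoplasmic actin, was the largest loss after Gzmb, with 3673 ± 41.3 CPM in Dex and 8186 ± 387 CPM in Ctrl libraries (-1.16 ± 0.07), and Actg1, the other cytoplasmic actin, had 4058 ± 76.7 CPM in Dex and 7214 ± 30.6 CPM in Ctrl libraries (-0.83 ± 0.05). The actins are similar in sequence and may share reads. Vim, the intermediate filament vimentin, was among the largest gains, with 4084 ± 198 CPM in Dex and 1929 ± 37.3 CPM in Ctrl libraries (1.08 ± 0.10). Hspa8, a constitutive chaperone, had 4334 ± 136 CPM in Dex and 7004 ± 201 CPM in Ctrl libraries (-0.69 ± 0.04). These genes were picked by their gain or loss of CPM, and their values are a description.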
